A study of Mus musculus with 2 samples.

Results

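The 38 interferon response genes described here were taken from a fixed list of symbols, and each was found in the deposited matrices, which hold 32285 genes. They were followed in 2 single-cell RNA-seq libraries made from whole tumours of mouse dorsal skin, 1 library per group. The Ctrl-D library came from Eed flox/flox mice given ethanol and the carcinogen DMBA, and the Eed iKO-D library from K14CrERT2;Eed flox/flox mice given hydroxytamoxifen and DMBA; all animals were 5 months old. Eed is a core subunit of the chromatin repressor PRC2, and the K14 promoter drives the recombinase in basal keratinocytes, so cells of other lineages in the Eed iKO-D tumours were not the target of the deletion. Cre genotype and hydroxytamoxifen differed together between the groups, and the number of animals behind each library is not given in the labels. The labels describe the cells as epidermal cancer cells, yet markers also picked out fibroblast-like, endothelial-like, muscle-like, pigment cell-like and several immune cell-like populations. With 1 library a group no difference below has a replicate check, and all intervals are 95% intervals that cover counting error only.

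Interferons are secreted signals of viral and immune alarm. Type I interferons act through the receptor chains Ifnar1 and Ifnar2 and switch on genes mainly through a complex that contains Stat2 and Irf9 and binds a DNA element called ISRE. Interferon gamma, made chiefly by T and NK cells, acts through Ifngr1 and Ifngr2 on genes that carry an element called GAS, and it is the stronger inducer of the guanylate-binding and immunity-related GTPases. In skin, keratinocytes and melanocytes both respond to interferons, and plasmacytoid dendritic cells are a known source of type I interferon.

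The members were grouped by the interferon that mainly induces them: 30 as type I, 5 as gamma-induced (Gbp2, Gbp3, Gbp7, Igtp and Iigp1), and 3 (Irf1, Irgm1 and Ifi47) as neither, because both kinds induce them. Promoters of 29 members were matched by symbol in a RefSeq table on GRCm38.p6, each running from 250 bases before to 50 bases after the start site. The ISRE core was searched on both strands as GAAA, any 2 bases and GAAA again, and the GAS core as TTC, any 3 bases and GAA, which reads the same on both strands. The ISRE letters stood in a promoter of 17 of the 29 genes. Counted by promoter, they stood in 19 of the 35 listed for these genes, or 54.3%, against 3.44% of all 32851 promoters in the table. GAS letters stood in 7 of the 29 genes, and in 20% of the 35 promoters against 8.30% of all. All 4 gamma-induced genes with a promoter entry held the ISRE letters and 2 of them also held GAS letters, while of 22 type I genes 12 held ISRE and 4 held GAS letters. These matches describe letters and not bound sites.

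To show how the elements are arranged in genes to which the results return, 5 promoters are printed: the ubiquitin-like modifier Isg15 and the RNA-binding Ifit1 among the type I genes, the GTPases Gbp7 and Igtp among the gamma-induced genes, and the transcription factor Irf1. Each stretch is the 150 bases that end just before the RefSeq start site, written 5′ to 3′ on the gene's strand, with ISRE and GAS letters in capitals. Isg15 lies on the minus strand (chr4:156200819-156200968), and the others on the plus strand: Ifit1 (chr19:34640739-34640888), Gbp7 (chr3:142530186-142530335), Igtp (chr11:58199406-58199555) and Irf1 (chr11:53769864-53770013).
Isg15: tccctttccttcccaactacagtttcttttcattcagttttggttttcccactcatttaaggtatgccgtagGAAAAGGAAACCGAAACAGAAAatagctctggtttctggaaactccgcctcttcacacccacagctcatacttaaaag
Ifit1: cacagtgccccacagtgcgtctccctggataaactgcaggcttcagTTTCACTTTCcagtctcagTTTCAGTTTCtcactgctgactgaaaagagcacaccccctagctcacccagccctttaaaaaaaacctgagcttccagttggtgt
Gbp7: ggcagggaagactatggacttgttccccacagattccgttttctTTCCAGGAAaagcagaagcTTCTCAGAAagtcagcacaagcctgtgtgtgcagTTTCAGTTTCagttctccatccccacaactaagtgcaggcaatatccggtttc
Igtp: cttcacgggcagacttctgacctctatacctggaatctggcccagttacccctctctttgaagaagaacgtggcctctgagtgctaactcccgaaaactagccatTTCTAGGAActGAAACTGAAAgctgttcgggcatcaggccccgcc
Irf1: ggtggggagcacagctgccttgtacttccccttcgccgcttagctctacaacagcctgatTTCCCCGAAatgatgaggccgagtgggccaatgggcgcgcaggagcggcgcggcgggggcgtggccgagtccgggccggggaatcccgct
In Isg15, 3 overlapping ISRE matches form 1 run from 78 to 57 bases before the start. Ifit1 has 2 separate matches on the opposite strand. Gbp7 carries 2 GAS matches upstream of 1 ISRE match, Igtp has 1 GAS match followed 2 bases later by 1 ISRE match, and Irf1 has 1 GAS match and no ISRE letters in this window.

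The Ctrl-D matrix held 8039 barcodes and 120500892 UMIs, of which 7393 cells with a median of 13037 UMIs were kept. The Eed iKO-D matrix held 22259 barcodes and 289511009 UMIs, of which 21484 cells with a median of 3191 UMIs were kept. The ribosomal-RNA-overlapping transcript Gm42418 took 0.515% of UMIs in Ctrl-D against 9.73% in Eed iKO-D, and 12473 Eed iKO-D cells stayed unnamed. Cell classes were rebuilt by clustering without the interferon genes, and 6 classes had at least 50 cells in each library and were compared: epithelial-like (5424 cells in Ctrl-D against 3262 in Eed iKO-D), fibroblast-like (208 and 1142), neutrophil-like (138 and 1129), T cell-like (480 and 155), macrophage- or monocyte-like (81 and 1084) and Schwann cell-like (95 and 57). Eed itself stood at 52.9 CPM, the gene's UMIs scaled to a common total for the class, in Ctrl-D beside 47.2 in Eed iKO-D epithelial-like cells, a ratio of 0.891 (0.860 to 0.924). Reads at the end of a transcript can lie outside a deleted exon, so this level checks the labels only weakly.

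In epithelial-like cells the interferon genes stood lower in Eed iKO-D as a group. Their summed level was 754 CPM in Ctrl-D against 198 CPM in Eed iKO-D, a ratio of 0.262 (0.259 to 0.266). Of 37 members with at least 20 UMIs over both libraries, 30 were at least 1.5-fold lower in Eed iKO-D, where 16.7% of all genes were that much lower, and 3 were at least 1.5-fold higher, where 38.8% of all genes were. The members' median log2 ratio (Eed iKO-D over Ctrl-D) was −2.11, beside 0.34 over all genes measured in the class. With size factors that centre the typical gene at no difference, 26.8% of all genes were higher and 26% lower, and Ifi204 was the 1 member still higher. Ifit3b was the member left out, with 5 and 4 UMIs. In these whole-tumour libraries each class was summed over its cells, so fewer responding cells and less RNA per responding cell cannot be told apart from a sum alone.

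**Figure D1:**
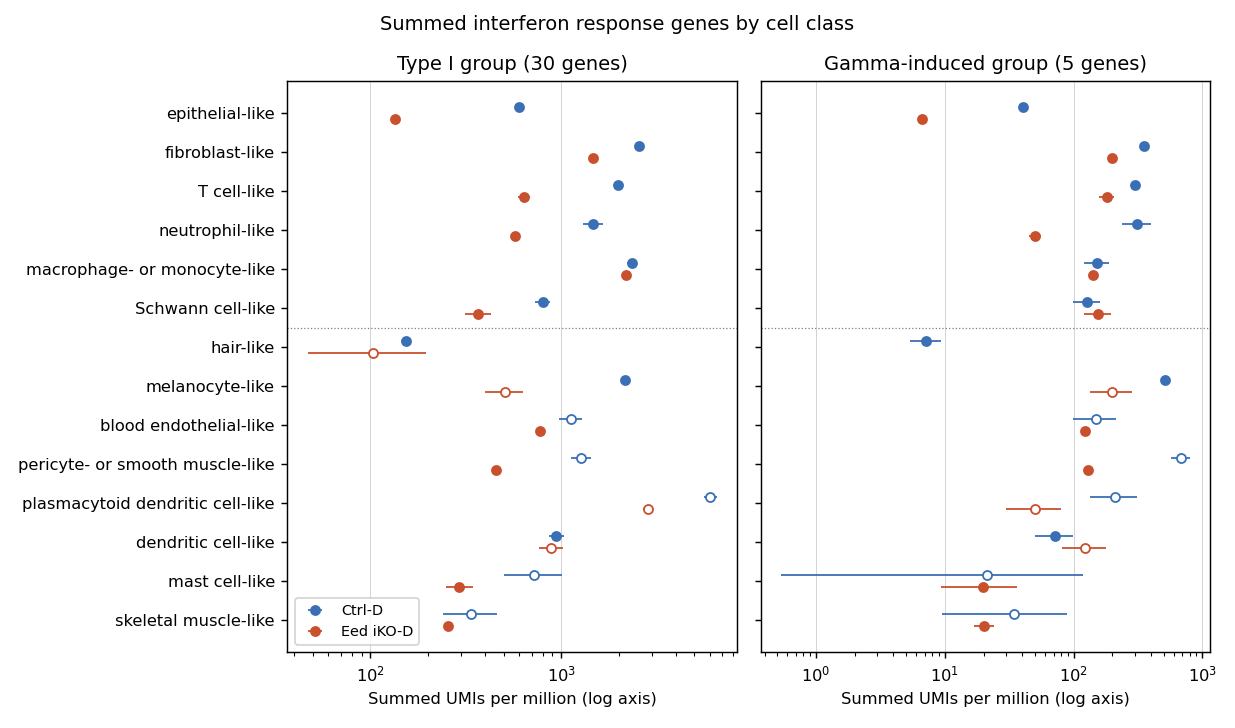
Summed level of the type I members and of the gamma-induced members (CPM, log axis) in each cell class, by library, with bars for the 95% Poisson interval; open points mark a library with under 50 cells of the class, and the dotted line separates classes that were compared from those that were not. Epithelial-like type I members stood at 600 CPM in Ctrl-D against 135 in Eed iKO-D, and the gamma-induced point of Eed iKO-D hair-like cells is not drawn because it had no UMI.

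Among the transcription factors, all 4 members were past 1.5-fold lower, where 16.7% of all genes were. Irf9, the DNA-binding subunit of the type I complex, stood at 28.0 CPM in Ctrl-D beside 6.46 in Eed iKO-D (log2 ratio −2.11). Its partner Stat2 stood at 18.3 and 6.63 CPM (−1.46), and Irf7, which amplifies type I interferon production, at 9.99 and 2.99 CPM (−1.74). Irf1, which both interferon kinds induce, was the most abundant of the 4 at 99.3 and 52.3 CPM and had the smallest difference (ratio 0.527, 0.511 to 0.543). Its UMIs were seen in 53.0% of Ctrl-D and 52.3% of Eed iKO-D cells, whose median depths were 15647 and 35488 UMIs.

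The nucleic acid sensors went both ways. The RNA sensor Dhx58 stood at 3.93 and 0.606 CPM in Ctrl-D and Eed iKO-D, a log2 ratio of −2.69. Zbp1, which binds Z-form nucleic acids, stood at 8.79 and 2.64 CPM (−1.73), and the double-stranded RNA sensor Ifih1 at 13.7 and 8.44 CPM (−0.70). Both DNA-binding PYHIN family members were past 1.5-fold higher in the class sum instead, where 38.8% of all genes were. Mndal stood at 2.45 CPM in Ctrl-D against 4.60 CPM in Eed iKO-D, a ratio of 1.88 (1.62 to 2.18), although it was past 1.5-fold higher in none of the 6 clusters that both libraries filled.

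Ifi204 (chr1:173747293-173766943, minus strand, GRCm38) was the member furthest from the rest. It had 175 UMIs in Ctrl-D against 5816 in Eed iKO-D epithelial-like cells, or 1.75 and 41.4 CPM, a ratio of 23.6 (20.3 to 27.6). Its UMIs were found in 2.75% of Ctrl-D and 45.6% of Eed iKO-D epithelial-like cells. Among the other classes of Eed iKO-D, Ifi204 stood at 270 CPM in fibroblast-like and 9.17 CPM in T cell-like cells, with a UMI in 89.9% and 5.81% of cells. It stood at 55.5 CPM in skeletal muscle-like and 39.35 CPM in mast cell-like cells. In the unnamed clusters 22, 20 and 21 it stood at 84.1, 23.7 and 23.8 CPM, so the level was not particular to epithelial-like cells. The 7 fibroblast markers moved with it: in epithelial-like cells they summed to 20.8 CPM in Ctrl-D against 327 CPM in Eed iKO-D, with 59070 CPM in the fibroblast-like cells of Eed iKO-D, and all 7 were detected in both libraries. In fibroblast-like cells Ifi204 hardly differed between the libraries, at 267 and 270 CPM (ratio 1.01, 0.918 to 1.11). Reads from near-identical PYHIN genes could have been divided between Ifi204, Mndal and their relatives. The part of RNA from other cells in the epithelial-like Ifi204 level was not tested.

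Of the oligoadenylate synthetase family, whose products activate the nuclease RNase L, 4 members were lower and 1 was higher (16.7% and 38.8% of all genes). Oasl2 stood at 20.3 CPM in Ctrl-D against 2.07 CPM in Eed iKO-D (log2 ratio −3.29), and Oas1a at 5.76 and 0.926 CPM (−2.63). Oas3 (4.57 and 0.520 CPM) and Oas2 (3.17 and 0.249 CPM) were lower by similar or larger margins, with log2 ratios of −3.13 and −3.65. Oasl1 was the exception at 1.74 and 2.94 CPM, a ratio of 1.68 (1.41 to 2.02). The family's genes are similar to each other, and how the authors' counting divided shared reads is not known.

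Ifit1, the founding member of a family that binds foreign RNA, stood at 12.1 CPM in Ctrl-D against 0.406 CPM in Eed iKO-D, with 1212 and 57 UMIs (ratio 0.0335, 0.0252 to 0.0436). Its relatives were scarce in both libraries. Ifit2 stood at 0.741 and 0.541 CPM, and Ifit3, which shares most of its sequence with Ifit3b, at 0.110 and 0.114 CPM, both within 1.5-fold.

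Isg15 (chr4:156199424-156200818), the modifier whose promoter holds the run of 3 ISRE matches shown above, was seen as 7860 UMIs in Ctrl-D beside 513 in Eed iKO-D epithelial-like cells. These gave 78.7 and 3.66 CPM, a ratio of 0.0464 (0.0424 to 0.0508). A UMI was present in 30.7% of Ctrl-D and 7.11% of Eed iKO-D epithelial-like cells, although the Eed iKO-D cells were the deeper ones. In Ctrl-D hair-like cells, which share that library's free RNA and had a median of 13135 UMIs, Isg15 stood at 32.4 CPM with a UMI in 22.3% of cells. Usp18, the protease that removes Isg15 from proteins and restrains the type I receptor, stood at 10.4 and 1.01 CPM (log2 ratio −3.35).

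The other antiviral effectors held the member with the lowest ratio. Ifi27l2a (chr12:103442167-103443680), a small interferon-induced membrane protein, had 20390 UMIs in Ctrl-D against 524 in Eed iKO-D. It was the most abundant member in Ctrl-D epithelial-like cells at 204 CPM and stood at 3.73 CPM in Eed iKO-D (ratio 0.0183, 0.0167 to 0.0199). Rtp4, a chaperone of membrane receptors, stood at 18.7 and 0.556 CPM (ratio 0.0297, 0.0234 to 0.0373). Together Ifi27l2a, Rtp4 and Ifit1 had the 3 lowest ratios of the 37 members measured.

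Bst2, which tethers budding virus particles to the cell surface, stood at 47.7 CPM in Ctrl-D against 4.69 in Eed iKO-D, a log2 ratio of −3.35. Xaf1, an antagonist of an apoptosis inhibitor, stood at 22.6 and 2.19 CPM (−3.36), and Ifi44 at 10.2 and 0.684 CPM (−3.90). Smaller differences were seen for Ifi35 (30.9 and 11.2 CPM, −1.46), Trim30a (3.72 and 1.15 CPM, −1.68) and the ADP-ribosyltransferase Parp14 (19.1 and 10.6 CPM, −0.85). Cmpk2, a nucleotide kinase, had 43 and 8 UMIs, or 0.431 and 0.0570 CPM. Rsad2, which encodes the antiviral enzyme viperin, stood at 1.21 and 1.11 CPM, and Samd9l, a restrainer of protein synthesis and growth, at 16.6 and 13.2 CPM. These last 2 were the effectors that stayed within 1.5-fold, so 9 of 11 effectors were past it and lower, where 16.7% of all genes were.

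All 7 interferon-induced GTPases, which act against microbes inside vacuoles, were past 1.5-fold lower in Eed iKO-D, where 16.7% of all genes were. This holds for the class sum. In the 6 clusters that both libraries filled, Gbp2 was past 1.5-fold higher in 3, Iigp1 and Ifi47 in 2 each and Gbp3 in 1. Gbp7, Igtp and Irgm1 were past it higher in none. Igtp stood at 5.62 CPM in Ctrl-D beside 0.292 CPM in Eed iKO-D (log2 ratio −4.25), and Iigp1 at 12.0 and 0.791 CPM (−3.92). The guanylate-binding proteins differed less: Gbp2 at 10.8 and 3.16 CPM (−1.78), Gbp3 at 1.99 and 0.549 CPM (−1.86), and Gbp7 at 10.2 and 1.84 CPM (−2.48). Irgm1, a regulator of the other GTPases, stood at 10.4 and 2.56 CPM (−2.02), and Ifi47 at 3.28 and 0.705 CPM (−2.21). The Gbp genes lie next to one another and are alike in sequence, and how reads were shared out among them is not known.

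**Figure D2:**
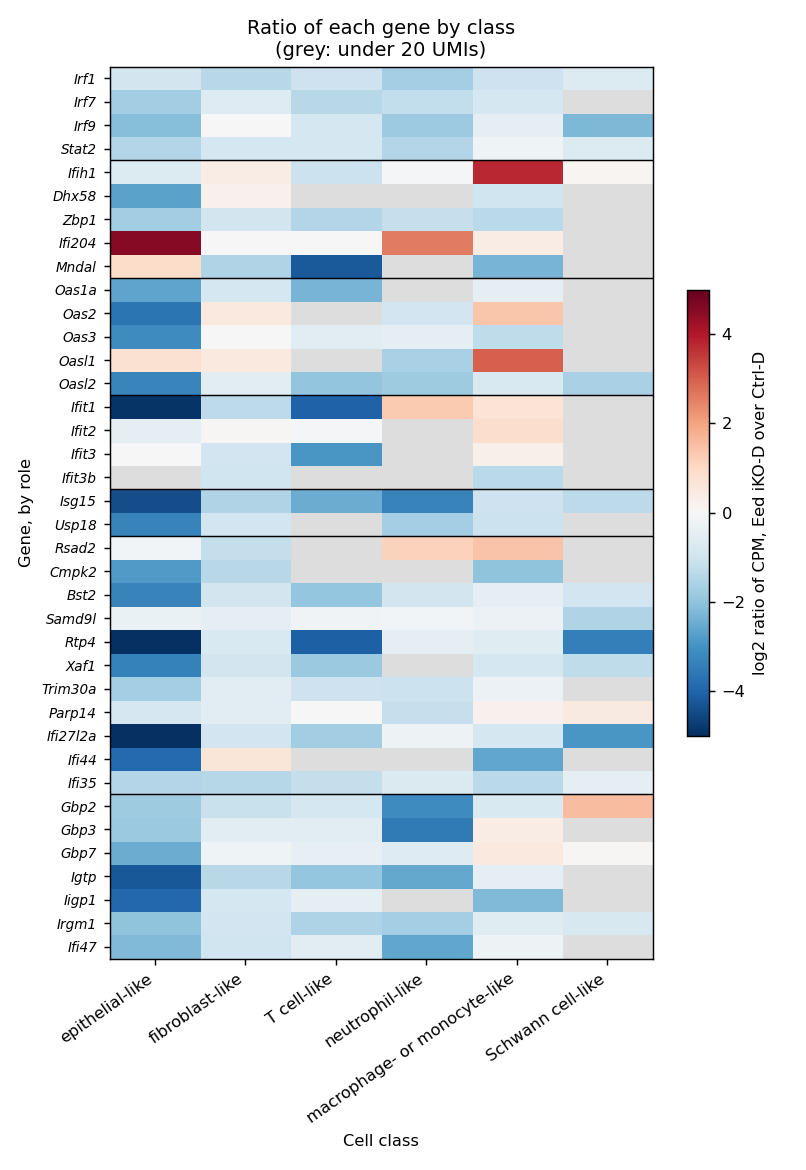
Log2 ratio of Eed iKO-D over Ctrl-D for each of the 38 members (grouped by role) in the 6 classes compared, on a colour scale from −5 to 5, with values beyond it in the end colour; black lines separate the roles and grey marks members with under 20 UMIs in both libraries together. The epithelial-like column is mostly on the lower side with Ifi204 at 4.56, Ifih1 reaches 3.78 in macrophage- or monocyte-like cells, and neutrophil-like Ifit1 and Ifi204 had no Ctrl-D UMI, so their colour rests on the 0.5 UMI added to each library.

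Summed by inducer, the 30 type I members stood at 600 CPM in Ctrl-D against 135 CPM in Eed iKO-D epithelial-like cells, a ratio of 0.226 (0.222 to 0.230). The 5 gamma-induced members stood at 40.7 and 6.63 CPM, a ratio of 0.163 (0.151 to 0.175). Gamma-induced UMIs were thus 6.36% of the type I and gamma-induced UMIs in Ctrl-D against 4.66% in Eed iKO-D. The gamma-induced ratio was the less stable of the pair. It was 0.405 when Irf1, Irgm1 and Ifi47 were counted with the group, 0.343 without cluster 9, which held most Eed iKO-D cells, and 0.516 with the Eed iKO-D clusters weighted to the Ctrl-D mix.

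The epithelial-like class joins 7 clusters that the libraries filled unevenly. Of these, 6 held at least 50 cells of each library: cluster 0 (led by Chil4, Fcgbp and Stfa3), cluster 1 (Krt15, Ptn and Lgr5), cluster 4 (Sprr2d, Sprr1b and Krt6b), cluster 5 (Cst6, Lor and Flg), cluster 8 (Tslp and Sostdc1) and cluster 9 (Lama3, Nrg1 and Hmga2). Cluster 9 had 125 Ctrl-D and 1900 Eed iKO-D cells, while cluster 0 had 2240 and 82. Cluster 3, led by Cck, was made of 627 Ctrl-D cells and no Eed iKO-D cell, and its members summed to 377 CPM.

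Within clusters the gap in summed level between the libraries ranged from wide to none. In cluster 0 the members summed to 823 CPM in Ctrl-D beside 276 CPM in Eed iKO-D, and in cluster 1 to 1080 and 328 CPM. Cluster 5 stood at 768 and 312 CPM, cluster 8 at 717 and 249 CPM, and cluster 4 at 359 and 240 CPM. Cluster 9 had the lowest sum in both libraries, and this sum hardly differed between them, at 173 and 172 CPM (ratio 0.992, 0.915 to 1.08). Single members did differ there, some past 1.5-fold lower and some past it higher, as counted below. Since cluster 9 made up most Eed iKO-D epithelial-like cells, the class ratio of 0.262 mixes differences within clusters with a different make-up of the class.

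Type I ratios in the 6 shared clusters had their low in cluster 1 (0.193) and their high in cluster 9 (0.915), with a median of 0.316. For gamma-induced ratios the low was 0.288, in cluster 5, and the high 1.87, in cluster 1, with a median of 0.575. Cluster 1 was the 1 shared cluster in which gamma-induced members stood higher in Eed iKO-D, at 27.6 and 51.6 CPM (ratio interval 1.47 to 2.37). Gbp2 there stood at 6.10 and 27.0 CPM and Iigp1 at 3.78 and 11.1 CPM. Fibroblast markers summed to 53.9 CPM in Ctrl-D against 725 CPM in Eed iKO-D cells of cluster 1, with all 7 detected in both, and the 9 macrophage markers to 0.671 and 32.0 CPM, with 4 at 0 in Ctrl-D against 1 at 0 in Eed iKO-D; their part in the result was not tested.

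Of 28 members with enough UMIs in all 6 shared clusters, 9 were past 1.5-fold lower in every one, where 0.895% of all genes measured in all 6 were: Isg15, Ifi27l2a, Oas1a, Oas3, Oasl2, Usp18, Xaf1, Rtp4 and Dhx58. Isg15 ranged from 55.8 to 93.5 CPM in the Ctrl-D cells of clusters 0, 1, 4, 5 and 8 and from 3.72 to 9.82 CPM in their Eed iKO-D cells. In cluster 9 it stood at 13.6 and 2.0 CPM. Ifi204 was the 1 member past 1.5-fold higher in all 6, where 2.22% of all genes were, with log2 ratios from 0.74 to 3.98. It stood at 1.27 and 3.42 CPM in cluster 0 and at 4.73 and 75.6 CPM in cluster 4. In the 2 Eed iKO-D clusters that stayed unnamed with about 40% of their UMIs in Gm42418 (cluster 20 with 40.5% and cluster 21 with 39.4%), Ifi204 stood at 23.7 and 23.8 CPM.

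Class and cluster values parted for some members. Of 32 members past 1.5-fold in the class and measured in a shared cluster, 13 were past it on the same side in every cluster measured, and 8 were past it on the other side in at least 1: Ifi47, Mndal, Ifih1, Oasl1, Parp14, Gbp2, Gbp3 and Iigp1. Shares of all genes that did either are not given, so these counts are not read as a trait of the members. Gbp2, at a class log2 ratio of −1.78, was lower in 2 clusters and higher in 3, and Ifih1, at −0.70, was lower in 1 and higher in 2. Irf1, at a class ratio of 0.527, was past 1.5-fold lower in 1 of the 6 clusters, with ratios from 0.635 in cluster 8 to 1.30 in cluster 9. Mndal, at a class ratio of 1.88, was past 1.5-fold higher in none of the 6 clusters and past it lower in 3; in cluster 9, its best-measured cluster, it stood at 7.37 and 4.29 CPM (ratio 0.582, 0.391 to 0.902). Oasl1, at a class ratio of 1.68, was measured in 3 shared clusters and past 1.5-fold lower in 2 of them: cluster 9, at 3.97 and 1.31 CPM (ratio 0.329, 0.189 to 0.620), and cluster 0, where 29 and 0 UMIs did not pass the floor. These genes were picked out after their values were seen.

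Counts of members past 1.5-fold lower were 29 of 35 measured in cluster 0 (14.9% of all genes), 22 of 34 in cluster 1 (17.6%), 25 of 34 in cluster 4 (10.9%), 23 of 32 in cluster 5 (15.5%), 28 of 32 in cluster 8 (14.3%) and 14 of 31 in cluster 9 (14.1%). Members past it higher numbered 1 in cluster 0 (30% of all genes), 4 in cluster 1 (28.2%), 3 in cluster 4 (51.4%), 3 in cluster 5 (40.3%), 2 in cluster 8 (14.2%) and 6 in cluster 9 (43.8%). Cluster 9 thus had the smallest share of lower members of the 6.

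**Figure D3:**
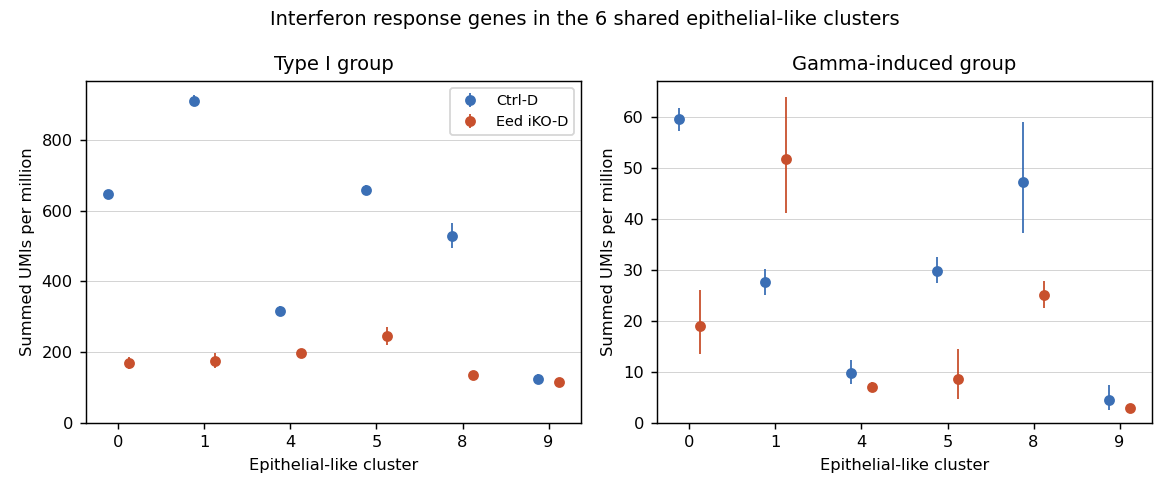
Summed level of the type I members (left panel) and of the gamma-induced members (right panel), in CPM on linear axes that start at 0, in the 6 epithelial-like clusters that both libraries filled with 50 cells or more, by library, with bars for the 95% Poisson interval. The type I points of cluster 9 nearly meet at 125 and 114 CPM, while in cluster 1 the gamma-induced point of Eed iKO-D lies above that of Ctrl-D, at 51.6 against 27.6 CPM.

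A score per cell was taken as the number of member UMIs after each cell was thinned to 2000 UMIs. Epithelial-like cells averaged 1.76 member UMIs in Ctrl-D beside 0.461 in Eed iKO-D, over 5268 and 3232 cells deep enough. Cells with at least 5 member UMIs made up 11.4% (10.5 to 12.3) of Ctrl-D and 0.588% (0.354 to 0.917) of Eed iKO-D epithelial-like cells. Within 1 UMI of this limit lay 352 and 22 cells, so the class above it is a range of a continuous score. Among Ctrl-D hair-like cells, 0.401% reached 5 member UMIs.

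In other classes the share at or above 5 member UMIs was 61.8% in Ctrl-D against 31.3% in Eed iKO-D for fibroblast-like cells, and 41.1% and 6.58% for T cell-like cells. Macrophage- or monocyte-like cells stood at 50.7% and 32.3%, and Schwann cell-like cells at 12.5% and 3.70%. Of 138 Ctrl-D neutrophil-like cells 11 were deep enough, too few to set beside Eed iKO-D. Ctrl-D melanocyte-like cells reached 54.0%, and plasmacytoid dendritic cell-like cells 100% of 20 cells in Ctrl-D against 71.4% of 28 in Eed iKO-D. Across these classes the share was lowest in hair-like cells of Ctrl-D and epithelial-like cells of Eed iKO-D.

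**Figure D4:**
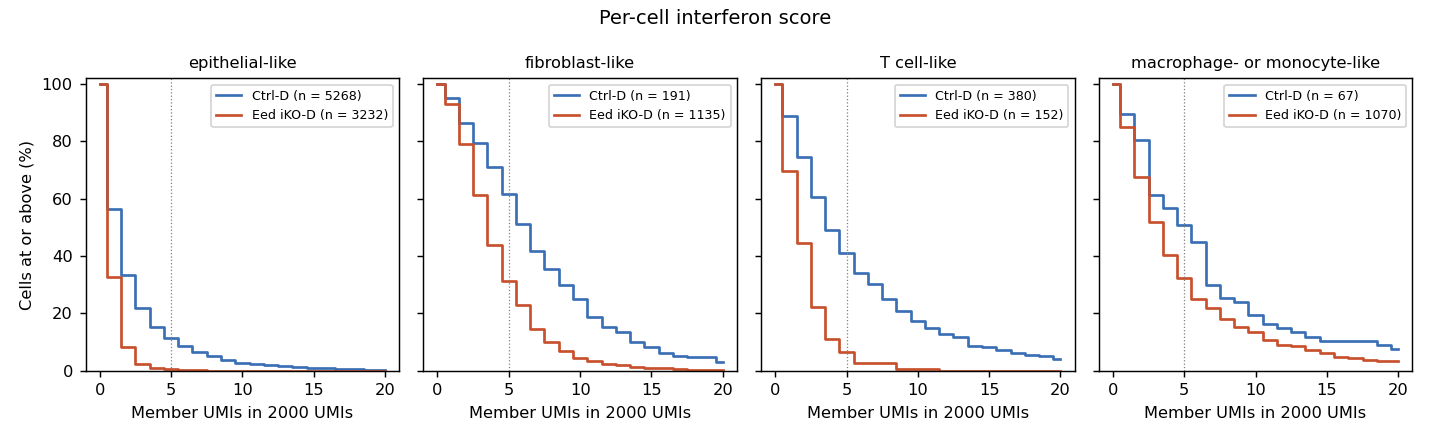
Share of cells (percent) at or above each number of member UMIs, with each cell thinned to 2000 UMIs, by library, in epithelial-like, fibroblast-like, T cell-like and macrophage- or monocyte-like cells; the dotted line stands at 5. In epithelial-like cells 11.4% of Ctrl-D and 0.588% of Eed iKO-D cells reach 5 member UMIs, and the Eed iKO-D curve lies under the Ctrl-D curve in the other classes drawn as well.

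Fibroblast-like cells, which were not the target of the recombinase, had higher levels than epithelial-like cells in both libraries and also stood lower in Eed iKO-D. Their members summed to 3338 CPM in Ctrl-D beside 1850 CPM in Eed iKO-D, a ratio of 0.554 (0.539 to 0.570). Of 38 members 24 were past 1.5-fold lower, where 24.5% of all genes were, and 1, Ifi44 with 4 Ctrl-D UMIs, was past it higher, where 24.5% were. Ifi27l2a stood at 900 and 460 CPM, Irf1 at 375 and 144 CPM, and Bst2 at 265 and 141 CPM. The highest ratios after Ifi44 were those of Oasl1 (4 and 101 UMIs) and Oas2 (8 and 189 UMIs). The lowest were those of Mndal (255 and 89.9 CPM, 0.352), Isg15 (127 and 44.8 CPM, 0.353) and Ifi35 (47.3 and 17.8 CPM, 0.377). Type I and gamma-induced sums had similar ratios here, 0.579 (0.561 to 0.598) and 0.562 (0.516 to 0.612).

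In T cell-like cells 21 of 30 measured members were past 1.5-fold lower in Eed iKO-D, where 21% of all genes were, and 0 were past it higher, where 17.8% were. Their sum stood at 2463 CPM in Ctrl-D against 904 CPM in Eed iKO-D (ratio 0.367, 0.344 to 0.392). Ifi27l2a gave much of it, at 1154 and 342 CPM. Mndal stood at 128 and 6.67 CPM, with 266 and 8 UMIs (ratio 0.0519, 0.0222 to 0.104). Ifit1 had 42 and 1 UMIs (ratio 0.0411, 0.00102 to 0.242) and Rtp4 43 and 1 UMIs (ratio 0.0401, 0.000993 to 0.236). Irf1 stood at 137 and 66.7 CPM and Gbp7 at 115 and 86.7 CPM. Parp14 (48.3 and 47.5 CPM), Ifit2 (7.25 and 6.67 CPM) and Ifi204 (9.18 and 9.17 CPM) had the highest ratios, all near 1. Gamma-induced members were nearer to each other, at 301 and 182 CPM (ratio 0.603, 0.514 to 0.704), than type I members at 1987 and 637 CPM (0.320, 0.296 to 0.346), and their share of the 2 sums was 13.2% and 22.2%.

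Neutrophil-like cells showed the reverse order of the groups. Their gamma-induced sum stood at 313 CPM in Ctrl-D against 50.2 CPM in Eed iKO-D (ratio 0.160, 0.122 to 0.214), and their type I sum at 1474 and 572 CPM (0.388, 0.344 to 0.439). Gbp2 stood at 247 and 28.1 CPM (ratio 0.113) and Gbp3 at 30.3 and 2.73 CPM, with 6 Ctrl-D UMIs. Isg15 stood at 591 and 57.9 CPM (ratio 0.0980), Irf1 at 429 and 133 CPM, and Trim30a at 252 and 121 CPM. In all, 20 of 28 measured members were past 1.5-fold lower, where 26.2% of all genes were, and 3 were past it higher, where 34.7% were.

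Those 3 higher values in neutrophil-like cells rest on few counts. Ifit1 had 0 and 38 UMIs and Ifi204 0 and 96 UMIs; against a floor of 3 Ctrl-D UMIs Ifi204 was at least 1.02-fold higher, and Ifit1 did not pass the floor. Rsad2 had 2 and 174 UMIs (ratio 2.76, 0.754 to 23.0). The Ctrl-D neutrophil-like cells had a median of 1273 UMIs against 4922 in Eed iKO-D, and Gm42418 took 1.01% and 20.8% of their UMIs; the part of these differences in the result was not tested.

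Macrophage- or monocyte-like cells were the class in which some type I genes stood far higher in Eed iKO-D. Ifih1 (chr2:62595798-62646255, minus strand, GRCm38) had 16 UMIs in Ctrl-D beside 6510 in Eed iKO-D, or 30.5 and 432 CPM, a ratio of 14.1 (8.69 to 24.7). Oasl1 stood at 19.1 and 158 CPM (ratio 8.29, 4.50 to 17.3) and Rsad2 at 47.7 and 132 CPM (2.77, 1.87 to 4.29). The 3 others past 1.5-fold higher were Ifit1, Ifit2 and Oas2. These 6 of 38 members were past it higher, where 33.6% of all genes were, and 19 were past it lower, where 23.1% were.

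Most abundant in Ctrl-D macrophage- or monocyte-like cells was Ifi27l2a, at 785 CPM against 427 CPM in Eed iKO-D. Isg15 stood at 218 and 107 CPM and Bst2 at 216 and 159 CPM. The lowest ratios were those of Ifi44 (21 and 3.58 CPM, 0.170), Mndal (115 and 23.2 CPM, 0.203) and the GTPase Iigp1 (26.7 and 5.90 CPM, 0.221). The sum over members was 2732 CPM in Ctrl-D against 2438 CPM in Eed iKO-D (ratio 0.892, 0.846 to 0.941). Its direction turned in 2 alternatives, with a ratio of 1.12 in coarser clusters and 1.03 without Ifi27l2a, so no direction is given for the sum.

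A minority of cells held most Ifih1, Oasl1 and Rsad2 UMIs of the Eed iKO-D macrophage- or monocyte-like cells. Ifih1 was detected in 49.9% of the 1084 cells, yet the 5% of cells richest in it held 66.4% of its UMIs, and 1 cell held 281. For Oasl1 and Rsad2 the richest 5% of cells held 61.2% and 79.7% of the UMIs. Ifnb1, which encodes interferon beta, had 114 UMIs in 33 of these cells (3.04%) and 0 in the 81 Ctrl-D cells, at least 1.32-fold higher against the floor of 3 UMIs. Those 81 cells held 16 Ifih1 UMIs in 14 cells, 10 Oasl1 UMIs in 5 cells and 25 Rsad2 UMIs in 9 cells. At most 2, 4 and 11 UMIs lay in a cell, and the richest 5% of cells held 43.8%, 100% and 84%. With so few UMIs a few cells must hold a large share, so the Ctrl-D shares cannot be set beside those of Eed iKO-D.

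In Schwann cell-like cells, 11 of 16 measured members were past 1.5-fold lower in Eed iKO-D (32% of all genes) and 1, Gbp2, was past it higher (25% of all genes). The sum was 1242 and 715 CPM (ratio 0.575, 0.503 to 0.657). Gbp2 stood at 25.7 and 77.2 CPM (a ratio of 3, with an interval of 1.60 to 5.91). Ifi27l2a stood at 108 and 13.2 CPM, Irf1 at 285 and 179 CPM, Isg15 at 129 and 50.7 CPM and Bst2 at 103 and 52.9 CPM. Irf9 had 21 and 3 UMIs (0.184, 0.0351 to 0.615) and Rtp4 20 and 1 UMIs (0.0643, 0.00155 to 0.402). Parp14 (29.2 and 39.7 CPM) and Ifih1 (20.6 and 22.1 CPM) had ratios within 1.5-fold. The 7 fibroblast markers, all detected in both libraries, summed to 16780 CPM in Ctrl-D against 4509 CPM in Eed iKO-D cells of this class, and their part in these values was not tested.

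Classes with under 50 cells in a library were not compared. Plasmacytoid dendritic cell-like cells had the highest sums of all classes, 6728 CPM over 23 Ctrl-D cells and 3273 CPM over 28 Eed iKO-D cells. Bst2, also a surface marker of these cells, gave 2980 and 1706 CPM of them, Ifi27l2a 1398 and 383 CPM, Irf1 332 and 318 CPM, and Trim30a 253 and 296 CPM. Their gamma-induced share was low, 3.35% in Ctrl-D beside 1.75% in Eed iKO-D.

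Melanocyte-like cells, 248 in Ctrl-D against 7 in Eed iKO-D, summed to 2927 CPM in Ctrl-D. Bst2 stood there at 507 CPM, Isg15 at 285 CPM, Iigp1 at 212 CPM and Ifit3 at 153 CPM. Among Ctrl-D classes with at least 50 cells, 18 of the 38 members had their highest level in melanocyte-like cells, 8 in neutrophil-like, 7 in macrophage- or monocyte-like, 3 in T cell-like and 2 in fibroblast-like cells. Hair-like cells, 511 in Ctrl-D against 9 in Eed iKO-D, stood at the other end with a Ctrl-D sum of 223 CPM, and 22 members had their lowest level there. The share of all genes highest or lowest in each class is not given, so these counts are not read as a trait of the members. Irf1 led in hair-like cells at 60.2 CPM, before Isg15 at 32.4, Ifi27l2a at 26.2 and Bst2 at 20.3 CPM.

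In blood endothelial-like cells, 19 in Ctrl-D beside 527 in Eed iKO-D, the members summed to 1433 and 1052 CPM. Bst2 stood at 345 and 162 CPM and Irf1 at 122 and 131 CPM. Of the 38 members, 6 had their highest Eed iKO-D level in this class, beside 12 in macrophage- or monocyte-like, 9 in fibroblast-like, 4 in neutrophil-like, 3 in T cell-like, 2 in Schwann cell-like and 2 in pericyte- or smooth muscle-like cells. Here too the share of all genes is not given. Pericyte- or smooth muscle-like cells, 31 and 371, summed to 2638 and 807 CPM, with Irf1 at 630 and 193 CPM and Iigp1 at 462 and 45.0 CPM. Their gamma-induced share was the largest of the Ctrl-D classes, 34.9% (30.4 to 39.7), and 22.2% (20.9 to 23.5) in Eed iKO-D.

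Dendritic cell-like cells, 55 and 14, summed to 1067 and 1082 CPM, and Ifi27l2a led in Ctrl-D at 221 CPM. Mast cell-like cells, 18 and 66, summed to 786 and 338 CPM with Isg15 at 446 CPM from 21 Ctrl-D UMIs and 61.0 CPM in Eed iKO-D. Skeletal muscle-like cells, 9 and 1160, summed to 511 and 353 CPM, led by Irf1 at 121 and 70.7 CPM. The unnamed cells summed to 1007 and 502 CPM.

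The gamma-induced share of type I and gamma-induced UMIs set the classes apart within Ctrl-D. It was 19.2% (18.2 to 20.3) in melanocyte-like, 17.5% (13.7 to 21.9) in neutrophil-like, 13.7% (10.9 to 16.9) in Schwann cell-like, 13.2% (12.2 to 14.2) in T cell-like and 12.2% (11.3 to 13.2) in fibroblast-like cells. It was 6.09% (4.86 to 7.52) in macrophage- or monocyte-like, 6.36% (6.17 to 6.55) in epithelial-like and 4.44% (3.35 to 5.75) in hair-like cells. In Eed iKO-D the share was 11.9% in fibroblast-like and 6.07% in macrophage- or monocyte-like cells, within the Ctrl-D intervals of those classes, 8.07% (7.23 to 8.97) in neutrophil-like cells and 29.5% (23.8 to 35.8) in Schwann cell-like cells.

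Ligand transcripts were scarce. Interferon gamma (Ifng) was highest in T cell-like cells, at 174 and 65 UMIs or 84.1 and 54.2 CPM in Ctrl-D and Eed iKO-D. Ifnb1 was highest in Eed iKO-D macrophage- or monocyte-like cells (7.56 CPM) and had 1 UMI in Ctrl-D, in a fibroblast-like cell. The keratinocyte interferon Ifnk gave most of its UMIs in epithelial-like cells, 44 and 99 or 0.441 and 0.705 CPM. Its CPM was highest in dendritic cell-like cells, from 2 UMIs in Ctrl-D (3.97 CPM) and 1 UMI in Eed iKO-D (4.56 CPM). In epithelial-like cells Ifne had 1 and 10, Ifnz 2 and 5, and Ifnl2 7 and 1 UMIs, and Ifna13 and Ifnab had 1 UMI each in Eed iKO-D. Ifnl2 and Ifnl3 had 2 UMIs each in Eed iKO-D plasmacytoid dendritic cell-like cells.

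Of 6 receptor chains 2 were past 1.5-fold higher in epithelial-like cells, where 38.8% of all genes were, and 0 were past it lower, where 16.7% were, so the counts were near those of genes in general. Ifnar1 stood at 14.7 CPM in Ctrl-D against 27.1 CPM in Eed iKO-D, Il10rb, a chain of the type III receptor, at 8.02 and 14.7 CPM, Ifnar2 at 41.1 and 43.9 CPM, Ifngr1 at 24.4 and 32.1 CPM, Ifngr2 at 24.6 and 21.6 CPM, and Ifnlr1 at 3.61 and 2.44 CPM. Among classes with at least 50 cells in the library, Ifngr1 was highest in T cell-like cells of both libraries. In the same ranking Ifnlr1 and Il10rb were highest in neutrophil-like cells of both. Ifnar1, Ifnar2 and Ifngr2 led there in neutrophil-like cells of Ctrl-D and macrophage- or monocyte-like cells of Eed iKO-D.

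The kinase Jak1, which acts at the receptors of both pathways, stood at 177 CPM in Ctrl-D epithelial-like cells against 225 CPM in Eed iKO-D. Of 10 further sensors and adaptors measured, 2 were past 1.5-fold higher in Eed iKO-D and 1 lower (38.8% and 16.7% of all genes), with the kinase Tbk1 at 23.6 and 37.5 CPM and the adaptor Tmem173 (STING) at 8.56 and 3.67 CPM. Of 7 brakes on the pathway measured, 2 were higher and 0 lower, again beside 38.8% and 16.7% of all genes. Pias1 was among the higher at 33.7 and 57.6 CPM, while Socs3 stood at 126 and 103 CPM.

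Other interferon targets followed the members in part. Of 18 other type I targets measured, 11 were past 1.5-fold lower in epithelial-like cells, where 16.7% of all genes were, and 5 higher, where 38.8% were. Ifitm3, which blocks virus entry, stood at 1165 CPM in Ctrl-D beside 351 CPM in Eed iKO-D, Ifitm2 at 387 and 198 CPM and Ddx60 at 9.22 and 0.933 CPM. The 5 higher genes were Isg20, Ifitm1 and the PYHIN genes Ifi203 (2.83 and 12.8 CPM), Ifi205 (0.170 and 4.83 CPM, ratio 28.4) and Ifi211 (3.20 and 17.2 CPM). The fibroblast marker sum of Eed iKO-D epithelial-like cells was 0.554% of that in its fibroblast-like cells, and the same share of the fibroblast-like Ifi205 level (1002 CPM) comes to 5.55 CPM, above the 4.83 CPM measured. For Ifi204 that share comes to 1.5 CPM beside 41.4 measured, for Ifi203 to 0.378 beside 12.8, and for Ifi211 to 2.37 beside 17.2 CPM. This scaling takes fibroblast-like cells as the only source. The part of RNA from any other cells in these 4 levels was not tested. Of 15 other gamma targets measured, 10 were lower and 1 higher, beside 16.7% and 38.8% of all genes. Psmb8, an immunoproteasome subunit, stood at 224 and 35.5 CPM, its partner Psmb9 at 134 and 12.4 CPM, the chemokine Cxcl9 at 36.7 and 2.39 CPM, and Ido1, the 1 higher gene, at 0.100 and 0.470 CPM.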

How the data were processed

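The authors deposited, per the labels, gene-by-cell matrices of UMI counts from 10x Chromium 3′ libraries aligned to mm10; the submitters' processing notes name Cell Ranger 8.0, the extract protocol version 2.1.0 and the matrix header 7.1.0. The counts were used as deposited. Cells needed at least 500 genes and at most 15% mitochondrial UMIs. Doublets were called with Scrublet in Scanpy 1.11.5: 129 of 7522 Ctrl-D cells were removed, while the caller marked 0 of 21484 Eed iKO-D cells and had not worked there, so doublets remain in that library. The libraries shared 49 barcode strings, which were kept as separate cells.

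Both libraries were clustered together (Leiden, resolution 1, 30 principal components, 15 neighbours) on 1977 variable genes, after 23 interferon genes were left out, which gave 26 clusters. Clusters were named from marker lists, with at least 3 raised markers, by a rule set after the data were seen; "X-like" names are rebuilt, not the authors'. UMIs were summed per class and library and scaled to CPM of all UMIs of the class. A member counted as measured when the libraries together held 20 or more of its UMIs, the fold was 1.5, 0.5 UMI was added for log2 ratios and calls, and the floor for a count of 0 was 3 UMIs. Intervals are exact Poisson for levels, exact conditional binomial for ratios and Clopper-Pearson for shares. No test was made, since each group had 1 library. The procedures were tested on simulated data. Promoters came from RefSeq GRCm38.p6 and gene coordinates from GENCODE vM21 on GRCm38.

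Named genes were, in each class compared, the 4 members with the highest CPM and the 3 highest and 3 lowest ratios, in other classes the 4 with the highest CPM, and in epithelial-like cells every member measured. The members, gene lists and markers were chosen with earlier results of these data known. The counts over a list of further signalling genes are not reported here.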

Additional observations from a re-analysis of the deposited data

Results flagged for a closer look

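Mndal, a PYHIN family gene, was higher in Eed iKO-D in 1 class and lower in another. Its log2 ratio was 0.91 in epithelial-like cells and −4.18 in T cell-like cells. Within the 6 shared epithelial-like clusters, though, it was past 1.5-fold higher in none and lower in 3, 1 of these with 0 UMIs in Eed iKO-D. Ifih1, the double-stranded RNA sensor, was likewise split, at 3.78 in macrophage- or monocyte-like cells and −0.70 in epithelial-like cells, where 1 shared cluster was past 1.5-fold lower and 2 were past it higher. With 1 library a group, neither difference between classes was tested.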

How the results depend on the processing

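No paired analysis was possible because each group had 1 library. In epithelial-like cells the count of members past 1.5-fold lower stayed between 27 and 32 in 11 alternatives, beside 30 as reported. The count past it higher, 3 as reported, was 5 with each cell gated by its own marker UMIs, 1 with size factors and 1 at a fold of 2. The type I ratio (0.226) was 0.263 with gated cells, 0.179 with size factors, 0.218 with cells weighted equally, 0.333 without Ifi27l2a and 0.316 as the median over clusters. The gamma-induced ratio (0.163) was 0.212, 0.129 and 0.227 under the first 3 of these, 0.116 without Gbp2, 0.575 as the median over clusters and 0.405 with Irf1, Irgm1 and Ifi47. Alternatives chosen after seeing the data gave type I ratios of 0.283 at the Ctrl-D cluster mix, 0.29 without cluster 9 and 0.24 in CPM without Gm42418, AY036118 and mitochondrial genes, and gamma-induced ratios of 0.516 and 0.343 in the first 2.

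The summed ratio in fibroblast-like cells (0.554) was 0.509 with stricter cell filters, 0.58 without doublet removal, 0.425 at Leiden resolution 0.5, 0.504 with gated cells, 0.573 with size factors, 0.617 in CPM without Gm42418 and the other named genes, and 0.57 without Ifi27l2a. In T cell-like cells (0.367) it was 0.547 at resolution 0.5, 0.441 without Gm42418 and those genes, 0.286 with equal weights and 0.43 without Ifi27l2a. In neutrophil-like cells (0.339) it was 0.428 without Gm42418 and those genes and 0.426 without Isg15. In macrophage- or monocyte-like cells (0.892) it was 0.83 without doublet removal, 0.829 with size factors, 0.998 without Gm42418 and those genes and 0.727 with equal weights, and it turned to 1.12 at resolution 0.5 and 1.03 without Ifi27l2a. In Schwann cell-like cells (0.575), whose alternatives were added after seeing the data, it was 0.685 without Gm42418 and those genes and 0.355 with equal weights. The ratio of per-cell scores in epithelial-like cells (0.262) stayed between 0.257 and 0.262. Other causes of these shifts were not tested.

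No value was obtained where a library kept under 50 cells of a class: neutrophil-like, macrophage- or monocyte-like and Schwann cell-like cells with stricter filters, Schwann cell-like cells without doublet removal, and T cell-like, macrophage- or monocyte-like and Schwann cell-like cells with gated cells. Depth limits the scarce members most: Ifit3, Ifit3b and Cmpk2 had 51 UMIs or fewer over both libraries in epithelial-like cells, and ligand levels rest on few UMIs.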

Other observations

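Targets and receptors beyond the 38 genes were also set side by side in the other compared classes, and were chosen after their values were seen. In fibroblast-like cells the feedback inhibitor Socs1 stood at 180 CPM in Ctrl-D and 30.0 CPM in Eed iKO-D (ratio 0.166, 0.145 to 0.190), the immunoproteasome subunit Psmb9 at 57.5 and 10.9 CPM, and the PYHIN gene Ifi205 at 394 and 1002 CPM (ratio 2.55, 2.36 to 2.76). In macrophage- or monocyte-like cells 2 chemokines induced by interferon gamma stood on opposite sides: Cxcl9 had 239 and 123 UMIs, or 456 and 8.15 CPM, while Cxcl10 stood at 91.6 and 146 CPM (ratio 1.60, 1.20 to 2.17). All 6 receptor chains were past 1.5-fold lower in neutrophil-like cells, where 26.2% of all genes were, and 0 of 5 measured were in T cell-like cells, where 21% of all genes were. In neutrophil-like cells Ifnar1 was near the limit (ratio 0.652, 0.472 to 0.923), and Ifnlr1 had 4 Ctrl-D UMIs (0.540, 0.201 to 2.04). Without Gm42418 and the other named genes the summed member ratio of that class rose from 0.339 to 0.428. That scaling raises the ratios of the receptor chains by the same factor, so Ifnar1, the nearest to the limit, would not stay past it. The chains were not counted anew that way.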
